A study of Mus musculus with 5 samples.

Results

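The enzymes that break down tryptophan, tyrosine and histidine were examined in livers of mouse pups that lack an Mdr2 allele. The set holds 9 genes, chosen by gene symbol as catabolic enzymes that mature after birth, out of 36401 identifiers counted, and all 9 were among the 13959 genes abundant enough to test. The Mdr2+/- group comprised 3 liver libraries and the Mdr2+/+ group 2. Pups of both genotypes were BALB/C littermates killed on day 10 of life, the Mdr2-/- line having been backcrossed to that strain, and RNA came from lobe 1 of the liver. Mdr2 is an older name of Abcb4, the canalicular floppase that delivers phosphatidylcholine to bile, and the series title places low ABCB4 in the context of biliary atresia, an inflammatory bile duct disease of newborns. The labels do not state that each library came from a separate pup, so p-values measure the spread between these libraries, which may in part be technical.

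The liver is the main organ in which these amino acids are degraded. Tryptophan is opened by tryptophan dioxygenase (Tdo2), a formamidase turns the product into kynurenine, and kynurenine passes through kynurenine monooxygenase (Kmo) and kynureninase (Kynu) towards NAD synthesis or complete oxidation. Tyrosine is transaminated by Tat and then passes through hydroxyphenylpyruvate dioxygenase (Hpd), homogentisate dioxygenase (Hgd) and fumarylacetoacetase (Fah), which yields fumarate and acetoacetate. Histidine is deaminated by histidine ammonia-lyase (Hal) to urocanate, which urocanate hydratase (Uroc1) converts further on the way to glutamate. In rodents several of these enzymes are scarce before birth, and Tat and Tdo2 are textbook targets of glucocorticoids.

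Of the 9 enzymes, 5 were higher in Mdr2+/- livers (Tdo2, Kynu, Hpd, Hal and Uroc1), 0 were lower and 4 did not pass (Kmo, Tat, Hgd and Fah). Calls came from edgeR's quasi-likelihood test at an adjusted p of 0.05, the Benjamini-Hochberg correction covering the whole table. Over the transcriptome 12.0% of tested genes passed, 6.63% as higher and 5.41% as lower. The 9 enzymes were chosen with earlier results of these data known, so these shares are given for description and not as a test. The median log2 fold change (log2FC, Mdr2+/- minus Mdr2+/+) was 0.29 over the 9 enzymes and -0.0025 over all tested genes. In 8 of the 9 every Mdr2+/- library was above both Mdr2+/+ libraries, and in 0 were they all below. Over all tested genes the genotypes did not overlap in 45.5%, with Mdr2+/- higher in 22.9% and lower in 22.7%. Tdo2 had the largest difference of the set, a 2.08-fold higher level, and the other 4 enzymes that passed were 1.22-fold to 1.47-fold higher. With scaling by library size alone 4 of the 9 were higher and 0 lower, Kynu no longer passing, and that scaling turned the calls over all genes from 925 higher and 755 lower to 704 higher and 936 lower.

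Levels below are normalised CPM, that is, estimated counts relative to a library size scaled by the TMM method. Libraries held 11944157 to 17312851 estimated counts, and the enzymes had between 773 (Kynu) and 19756 (Hpd) counts in a library. Abcb4 itself, which checks the labels, had 101, 97.7 and 92.6 CPM in Mdr2+/- livers, against 162 and 162 CPM in Mdr2+/+ livers. Markers of adult hepatocytes (3 of 14 higher and 1 lower) summed to 179700 to 193000 CPM in Mdr2+/- and 167300 to 182300 CPM in Mdr2+/+ livers. Most of that sum was albumin. Alb alone had 146400, 136500 and 131600 CPM in Mdr2+/- livers, against 119100 and 131500 CPM in Mdr2+/+ livers. Alb did not pass (edgeR adjusted p = 0.236), and the median log2FC of the 14 markers was -0.04. Markers of some other cell types differed between the genotypes. Erythroid markers fell in 11 of 12 cases (sum 2684 to 3092 CPM in Mdr2+/- and 4589 to 5576 CPM in Mdr2+/+ livers), and neutrophil and myeloid progenitor markers rose in 13 of 15 (395 to 503 CPM in Mdr2+/- and 135 to 188 CPM in Mdr2+/+ livers). Among lymphocyte markers 6 of 12 rose and 1 fell (sum 37.0 to 43.3 CPM in Mdr2+/- and 18.2 to 25.1 CPM in Mdr2+/+ livers), and among macrophage and Kupffer cell markers 5 of 15 fell and 0 rose (533 to 616 CPM in Mdr2+/- and 534 to 760.4 CPM in Mdr2+/+ livers). Cholangiocyte markers (1 of 9 higher, 0 lower) summed to 166 to 169 CPM in Mdr2+/- and 163 to 181 CPM in Mdr2+/+ livers, and stellate and endothelial markers (1 of 12 higher and 1 lower) to 1375 to 1496 CPM in Mdr2+/- and 1179 to 1314 CPM in Mdr2+/+ livers. With an Mdr2+/- library left out, erythroid falls numbered 9 to 11, neutrophil and myeloid progenitor rises 12 or 13 and lymphocyte rises 3 or 4. Macrophage falls then numbered 1 to 4 and the cholangiocyte rise 0 or 1. Without Mdr2+/- replicate 3, 1 macrophage marker fell and 1 rose. The median log2FC of macrophage and Kupffer cell markers was -0.05 without Mdr2+/+ replicate 1 and -0.52 without Mdr2+/+ replicate 2. None of these markers that the files list was at 0 in all 5 libraries. Their part in the enzyme results was not tested, and in bulk tissue fewer cells of a type and less RNA per cell cannot be told apart.

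**Figure D1:**
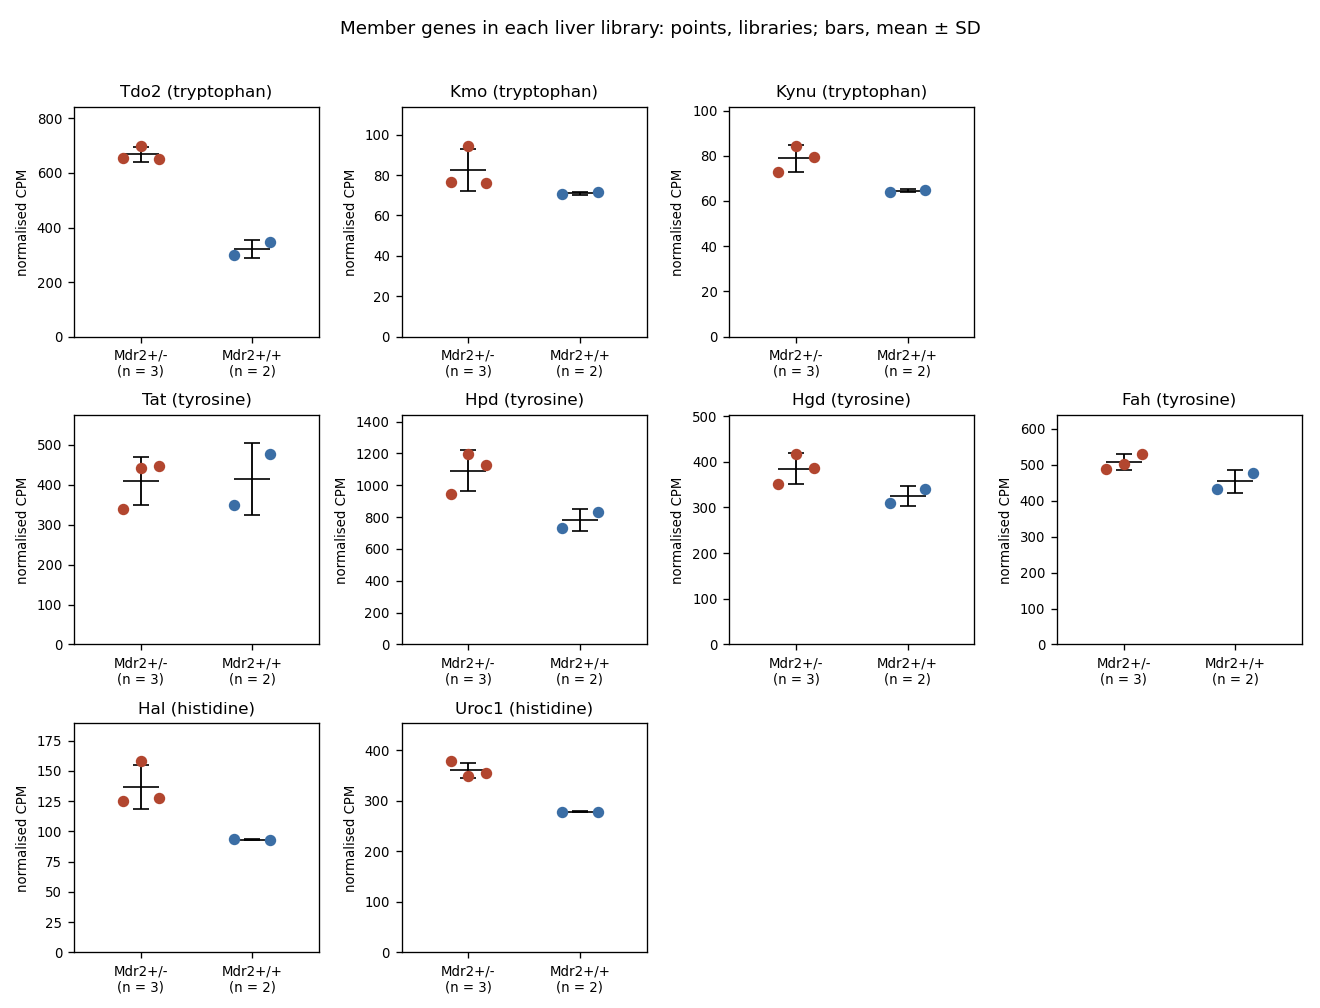
Normalised CPM (vertical axes, starting at 0) of the 9 enzymes in each library, with Mdr2+/- (n = 3, red) left of Mdr2+/+ (n = 2, blue) and black bars for mean ± SD. The Tdo2 points of the Mdr2+/- livers lie at 652 to 700.3 CPM, far above both Mdr2+/+ points, while the Tat points of the genotypes are interleaved.

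Tdo2, the rate-limiting enzyme of hepatic tryptophan oxidation, had 654, 700.3 and 652 CPM in Mdr2+/- livers, against 298 and 346 CPM in Mdr2+/+ livers. All 3 Mdr2+/- libraries lay above both Mdr2+/+ libraries, and the lowest of them was 88.4% above the higher Mdr2+/+ library. The log2FC was 1.05 (SE 0.08, edgeR adjusted p = 1.97e-04), and the fold difference of 2.08 had a 95% interval of 1.83 to 2.35. The gene lies on chromosome 3 (ENSMUSG00000028011, mm10, 81957090 to 81976202, minus strand), and its principal transcript has 12 exons.

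Kynu, which cleaves kynurenine and its hydroxylated form, had 72.7, 84.5 and 79.7 CPM in Mdr2+/- livers, against 64.1 and 65.0 CPM in Mdr2+/+ livers. The groups did not overlap, although the lowest Mdr2+/- library was only 11.8% above the higher Mdr2+/+ library. Kynu rose by a log2FC of 0.29 (SE 0.07, edgeR adjusted p = 0.0341). This call was lost without Mdr2+/- replicate 2 (adjusted p = 0.106) or 3 (0.0857), or without Mdr2+/+ replicate 1 (0.143) or 2 (0.0997). Kynu lies on chromosome 2 (ENSMUSG00000026866, mm10, 43555329 to 43682715, plus strand).

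Kmo, the outer mitochondrial membrane enzyme that hydroxylates kynurenine, had 76.8, 94.6 and 75.9 CPM in Mdr2+/- livers, against 70.5 and 71.5 CPM in Mdr2+/+ livers. Replicate 2 was the highest of the Mdr2+/- libraries, and the other two lay just above the Mdr2+/+ libraries. Kmo did not pass (log2FC 0.22, SE 0.10, edgeR adjusted p = 0.179), and its fold difference of 1.16 had a 95% interval of 0.999 to 1.35. Without Mdr2+/- replicate 2 the log2FC was 0.10. Kmo (ENSMUSG00000039783, mm10 chromosome 1, 175620381 to 175662116, plus strand) shares its locus with Fh1 on the opposite strand, and no annotated exons of the pair overlap.

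Among the tyrosine enzymes, Hpd was the member that rose. Hpd, which turns hydroxyphenylpyruvate into homogentisate, had 948, 1199 and 1125 CPM in Mdr2+/- livers, against 733 and 829.6 CPM in Mdr2+/+ livers. Each Mdr2+/- library was above both Mdr2+/+ libraries, with replicate 1 the lowest. The log2FC was 0.48 (SE 0.10, edgeR adjusted p = 0.0163), a 1.40-fold difference with a 95% interval of 1.19 to 1.64. Leaving out Mdr2+/+ replicate 1 (adjusted p = 0.106) or Mdr2+/- replicate 2 (0.0543) ended the call. Hpd (ENSMUSG00000029445, mm10 chromosome 5, 123171807 to 123182727, minus strand) is on the same chromosome as Abcb4, which lies at 8893717 to 8959231. It also overlaps Psmd9 on the opposite strand outside annotated exons.

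Tat, which begins tyrosine breakdown, had 339, 441 and 446 CPM in Mdr2+/- livers, against 350.0 and 478 CPM in Mdr2+/+ livers. The libraries of the genotypes were interleaved: the lowest value was an Mdr2+/- library and the highest an Mdr2+/+ library. Tat did not pass (log2FC -0.02, SE 0.14, edgeR adjusted p = 0.953), and the 95% interval of the fold was 0.789 to 1.24. It was the most variable enzyme of the set, with a coefficient of variation of 14.8% in Mdr2+/- and 21.9% in Mdr2+/+ livers. The sign of its log2FC depended on which libraries entered, at 0.23 without Mdr2+/+ replicate 2 and -0.23 without Mdr2+/+ replicate 1. Tat lies on chromosome 8 (ENSMUSG00000001670, mm10, 109990437 to 109999803, plus strand).

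Hgd, whose loss causes alkaptonuria in humans, had 351, 418 and 386 CPM in Mdr2+/- livers, against 309 and 340.3 CPM in Mdr2+/+ livers. The groups were separate, but the gap between the nearest libraries was 3.02%. Hgd did not pass (log2FC 0.25, SE 0.08, edgeR adjusted p = 0.0904). It passed without Mdr2+/- replicate 1 (0.0455), with no filter on low counts (0.0239) and with an offset for transcript length (0.0401). Hgd lies on chromosome 16 (ENSMUSG00000022821, mm10, 37580153 to 37632020, plus strand).

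Fah, the last enzyme of the tyrosine route, whose loss causes hereditary tyrosinaemia in humans, had 489.5, 501 and 531 CPM in Mdr2+/- livers, against 432 and 476 CPM in Mdr2+/+ livers. The Mdr2+/- libraries were all higher, the nearest pair being 2.76% apart. Fah did not pass (log2FC 0.16, SE 0.07, edgeR adjusted p = 0.171), and its fold of 1.12 had an upper 95% limit of 1.25. The gene lies on chromosome 7 (ENSMUSG00000030630, mm10, 84585159 to 84606722, minus strand).

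Both histidine enzymes rose. Hal, which deaminates histidine, had 125, 158 and 127 CPM in Mdr2+/- livers, against 93.5 and 92.7 CPM in Mdr2+/+ livers. The Mdr2+/+ libraries were nearly equal, and the lowest Mdr2+/- library was 33.6% above them. Its log2FC was 0.55 (SE 0.10, edgeR adjusted p = 0.00881), a 1.47-fold difference with a 95% interval of 1.26 to 1.71. Without Mdr2+/+ replicate 1 the log2FC was 0.56 with an adjusted p of 0.0570. Hal lies on chromosome 10 (ENSMUSG00000020017, mm10, 93488768 to 93519304, plus strand).

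Uroc1, which acts on urocanate, the product of Hal, had 378, 349 and 354 CPM in Mdr2+/- livers, against 277 and 279 CPM in Mdr2+/+ livers. The replicates of each genotype lay close together and the groups were 25.3% apart at their nearest. The log2FC was 0.37 (SE 0.06, edgeR adjusted p = 0.00704), a 1.30-fold difference with a 95% interval of 1.17 to 1.43. Like Tdo2, Uroc1 passed with any library left out (adjusted p = 0.0176 to 0.0417 for Uroc1 and 2.06e-04 to 0.0011 for Tdo2). Uroc1 lies on chromosome 6 (ENSMUSG00000034456, mm10, 90333284 to 90364551, plus strand).

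**Figure D2:**
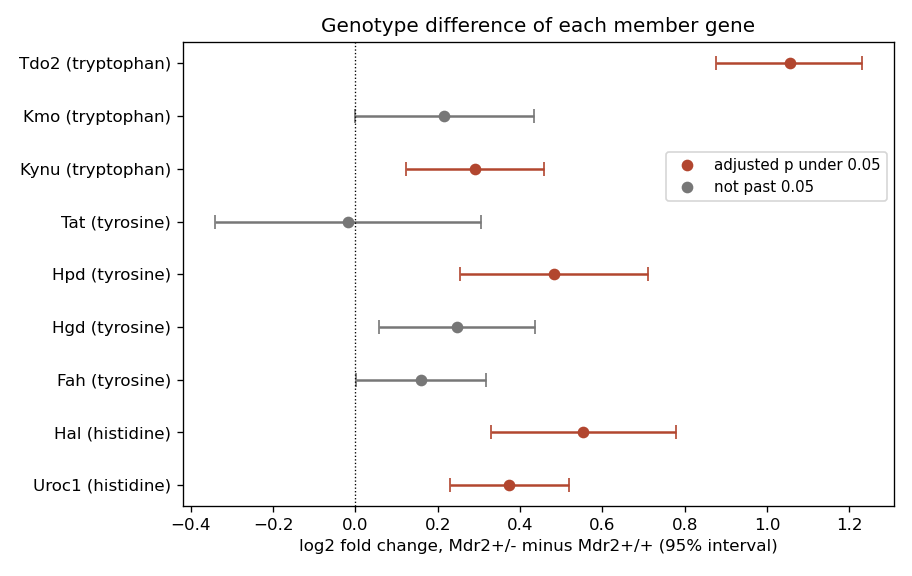
Log2 fold change of each enzyme (horizontal axis, Mdr2+/- minus Mdr2+/+) with its 95% interval, ordered by route, red where the adjusted p was under 0.05. The Tdo2 interval (0.88 to 1.23) lies to the right of the intervals of all 8 other enzymes, and the Tat interval spans 0.

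Promoter sequences are shown for 3 enzymes that rose (Hal, Uroc1 and Hpd) and for Tat, which did not pass, so that the stretches upstream of genes with different behaviour can be read side by side. They are RefSeq sequences on GRCm38.p6, written 5′ to 3′ on the strand of the gene and starting 250 bases before its RefSeq start, without bases that GENCODE places in an exon of the gene. Capitals mark a match to any of the motifs searched. They cover chr10:93488518-93488767 on the plus strand for Hal, chr6:90333039-90333283 on the plus strand for Uroc1, chr5:123182728-123182973 on the minus strand for Hpd and chr8:109990186-109990435 on the plus strand for Tat.
Hal: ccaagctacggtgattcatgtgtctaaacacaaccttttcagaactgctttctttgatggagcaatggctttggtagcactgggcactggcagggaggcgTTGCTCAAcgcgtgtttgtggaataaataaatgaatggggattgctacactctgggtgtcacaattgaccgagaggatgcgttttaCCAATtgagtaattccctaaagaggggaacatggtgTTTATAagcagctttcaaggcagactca
Uroc1: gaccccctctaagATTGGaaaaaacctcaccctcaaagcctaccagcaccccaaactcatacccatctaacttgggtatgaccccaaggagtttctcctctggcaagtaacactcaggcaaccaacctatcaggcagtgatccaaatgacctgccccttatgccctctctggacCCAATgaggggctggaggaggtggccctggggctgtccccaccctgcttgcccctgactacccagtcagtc
Hpd: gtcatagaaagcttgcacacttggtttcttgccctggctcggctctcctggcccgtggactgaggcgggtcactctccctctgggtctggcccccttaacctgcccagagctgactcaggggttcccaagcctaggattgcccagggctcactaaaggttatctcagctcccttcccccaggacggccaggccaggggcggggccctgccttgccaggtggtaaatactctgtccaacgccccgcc
Tat: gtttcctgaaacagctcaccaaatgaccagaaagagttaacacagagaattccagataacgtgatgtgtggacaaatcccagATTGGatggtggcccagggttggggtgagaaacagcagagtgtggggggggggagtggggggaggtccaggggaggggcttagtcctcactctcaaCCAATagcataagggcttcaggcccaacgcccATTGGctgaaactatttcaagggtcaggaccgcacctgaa

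RefSeq promoters were found for 8 of the 9 enzymes, Kynu being the exception, and the 250 bases before the start of each were searched on both strands. The core promoter letters sought were TATAAA and the CCAAT box. Letters for liver factors were TTATGNAA for the D-box family, TTGCNNAA for the C/EBP family, TGTTTAC for FOXA proteins and CAAAGTCCA for the nuclear receptor HNF4, with TGACGTCA for the cyclic AMP response element. HNF1 was sought as GTTAAT and as the full palindrome that contains it, and the glucocorticoid response element as TGTTCT and as the full palindrome that contains it. A CCAAT box was found in 5 of the 8 (Hal, Hgd, Tat, Tdo2 and Uroc1), against 33.9% of 32841 promoters of that length. Tat held 3 copies, Uroc1 and Hgd 2 each. TATAAA was found in 3 of the 8 (Hal, Hgd and Tdo2), against 12.4% of all promoters, a match anywhere in the window being counted. In Hal it lay at -28 to -23 and in Hgd at -139 to -134, both on the reverse strand. The Tdo2 match lay at -229 to -224. The Hgd and Tdo2 matches were thus farther from the start than the Hal match. The C/EBP letters were found in Hal and Hgd, against 9.57% of all promoters. The Hpd window, with 62.8% G and C, held no match to any of the letters, and none of the 8 held TGTTCT, which 16.1% of all promoters held. Such matches describe these letters in this window only. The Tdo2 window lies within an exon of a longer GENCODE transcript and is not printed. In the Kmo window 197 of the 250 bases also lie in GENCODE exons of the gene. The Fah window, at 84605943 to 84606192 on chromosome 7, holds 0 exon bases but lies inside the GENCODE span of the gene. These windows are counted among the 8.

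Per kilobase of principal transcript, Hpd was the most abundant enzyme in both genotypes, at 777 ± 91.9 CPM per kilobase in Mdr2+/- and 556 ± 48.8 in Mdr2+/+ livers (SD, n = 3 and n = 2). It was followed by Fah (320.1 ± 13.7 in Mdr2+/- and 287 ± 19.7 in Mdr2+/+ livers) and Hgd (226 ± 19.8 in Mdr2+/- and 191 ± 13.0 in Mdr2+/+ livers). Tdo2 and Tat changed places in this order. Tdo2 had 190 to 204 CPM per kilobase in Mdr2+/- livers, above the 143 to 188 of Tat there, and 86.8 to 101 in Mdr2+/+ livers, below the 147 to 201 of Tat there. Uroc1 came next at 107 ± 4.52 CPM per kilobase in Mdr2+/- and 82.5 ± 0.225 in Mdr2+/+ livers. Kmo, Kynu and Hal were the scarcest. Their ranges ran together in Mdr2+/- livers (28.2 to 35.1, 26.6 to 30.9 and 23.5 to 29.7 CPM per kilobase, in that order), whereas in Mdr2+/+ livers they were separate (26.2 to 26.5, 23.5 to 23.8 and 17.4 to 17.6). Tat and Hgd overlapped in Mdr2+/+ livers, where Hgd had 182 to 199.9 CPM per kilobase.

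The balance between an enzyme and the next of the 9 on its route was compared as a ratio of their CPM within each library, which does not depend on the scaling between libraries. Some pairs are not adjacent steps, since Afmid acts between Tdo2 and Kmo and Gstz1 between Hgd and Fah. These ratios were chosen after the values were seen. Kmo stood to Tdo2 at 0.117, 0.135 and 0.116 in Mdr2+/- livers, against 0.237 and 0.207 in Mdr2+/+ livers. Kmo itself was not lower in any Mdr2+/- library, so this ratio restates the rise of Tdo2. Hpd over Tat was 2.80, 2.72 and 2.52 in Mdr2+/- livers, against 2.09 and 1.74 in Mdr2+/+ livers. Hgd over Hpd was 0.370, 0.349 and 0.343 in Mdr2+/- livers, against 0.422 and 0.410 in Mdr2+/+ livers. It shares Hpd with the ratio of Hpd over Tat, so these ratios are not independent. Each of these 3 ratios was separate between the genotypes, with an exact two-sided permutation p of 0.1 each, the smallest that 3 against 2 libraries allow, and 0.2 after Benjamini-Hochberg adjustment over 6 ratios. The other 3 ratios gave an exact permutation p of 0.5 to 0.7: Kynu over Kmo averaged 0.963 in Mdr2+/- and 0.909 in Mdr2+/+ livers, Fah over Hgd 1.32 in Mdr2+/- and 1.40 in Mdr2+/+ livers, and Uroc1 over Hal 2.67 in Mdr2+/- and 2.99 in Mdr2+/+ livers. Fah over Hgd was also lower in every Mdr2+/- library, but by a margin that disappears on rounding.

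The order of the libraries varied among the enzymes. Replicate 2 was the highest Mdr2+/- library for 6 of the 9 enzymes, replicate 1 the lowest for 6, and replicate 2 the higher Mdr2+/+ library for 8. Uroc1 had replicate 1 as its highest and replicate 2 as its lowest Mdr2+/- library, Tat and Fah had replicate 3 as their highest, Tdo2 and Kmo had replicate 3 as their lowest, and Hal had replicate 1 as the higher Mdr2+/+ library. With a library left out the number of calls changed: 2 of the 9 passed without Mdr2+/+ replicate 1, 3 without Mdr2+/- replicate 2, 4 without Mdr2+/- replicate 3 or Mdr2+/+ replicate 2, and 6 without Mdr2+/- replicate 1.

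**Figure D3:**
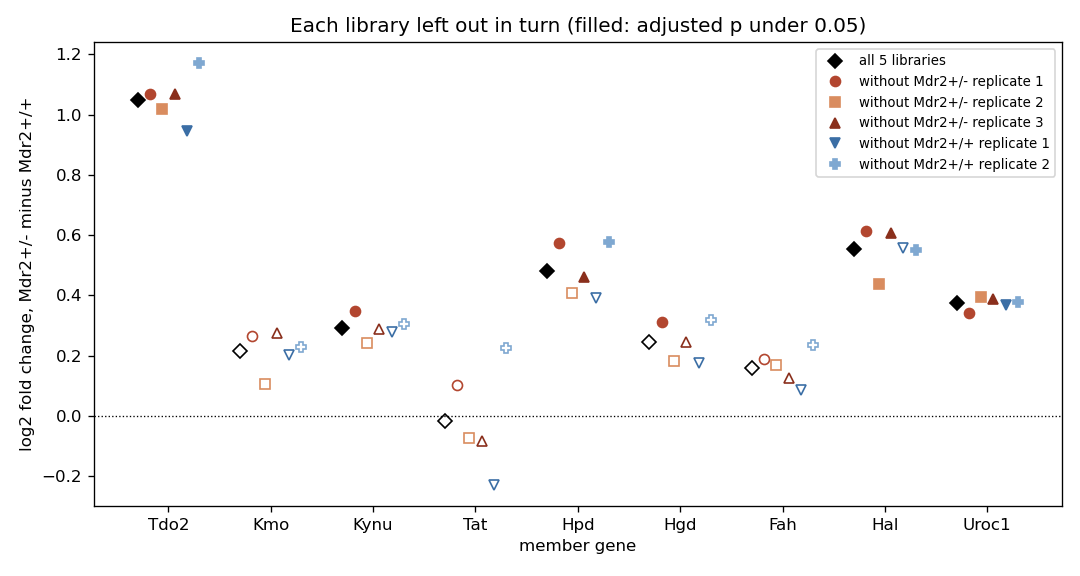
Log2 fold change (vertical axis, Mdr2+/- minus Mdr2+/+) of each enzyme with all 5 libraries and with each library left out, filled where the adjusted p was under 0.05. Tdo2 stays between 0.95 and 1.17 and Uroc1 between 0.34 and 0.40, filled throughout, while the Tat symbols fall on both sides of 0.

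The other genes of each route came from lists written with earlier results of these data known. On the tryptophan and NAD route, 3 of 14 other genes rose and 0 fell (median log2FC 0.09). Ido2, a second tryptophan-opening dioxygenase, had 19.9, 19.4 and 18.9 CPM in Mdr2+/- livers, against 9.64 and 7.40 CPM in Mdr2+/+ livers. All of its Mdr2+/- libraries were higher (log2FC 1.17, SE 0.12, edgeR adjusted p = 8.3e-04), and it passed in all 14 alternative analyses. Afmid, the formamidase that acts directly after Tdo2, rose to 150.4 ± 10.4 CPM in Mdr2+/- livers, against 118 ± 6.63 CPM in Mdr2+/+ livers (SD, n = 3 and n = 2; log2FC 0.34, edgeR adjusted p = 0.0191). Haao, which acts after Kmo and Kynu, rose to 144 ± 7.36 CPM in Mdr2+/- livers, against 111 ± 3.69 CPM in Mdr2+/+ livers (log2FC 0.38, edgeR adjusted p = 0.00828). Without Mdr2+/+ replicate 1 this count was 1 of 14, with Afmid at an adjusted p of 0.123 and Haao at 0.0601. Qprt, the entry to NAD from this route, was named after its values were seen and had a log2FC of -0.03 (edgeR adjusted p = 0.805). Ido1, a dioxygenase that opens tryptophan outside the liver, and Tph1, which starts serotonin synthesis, were at 0 in all 5 libraries, where 3 counts correspond to 0.174 to 0.252 CPM.

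On the phenylalanine and tyrosine route, 0 of 12 other genes passed in edgeR, DESeq2 or limma, and 3 had an unadjusted p under 0.05 (median log2FC -0.0092). The lowest p-values belonged to Gch1, which starts synthesis of the cofactor of phenylalanine hydroxylase (45.1 ± 0.964 CPM in Mdr2+/- and 52.9 ± 4.13 CPM in Mdr2+/+ livers, log2FC -0.23, edgeR adjusted p = 0.0627), and to the pigment enzyme Tyr, at 0.913 ± 0.117 CPM in Mdr2+/- and 1.53 ± 0.103 CPM in Mdr2+/+ livers (log2FC -0.74, edgeR adjusted p = 0.107). With no filter on low counts 2 of the route's other genes were higher, and without Mdr2+/- replicate 1 a single one was, the aspartate aminotransferase Got1 (edgeR adjusted p = 0.00421).

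On the histidine route, 1 of 7 other genes passed, and it was lower (median log2FC 0.08). Cndp2, a dipeptidase, fell to 36.5 ± 1.40 CPM in Mdr2+/- livers, against 44.4 ± 0.920 CPM in Mdr2+/+ livers (log2FC -0.28, edgeR adjusted p = 0.0272). It kept its call in 6 of 14 alternative analyses and lost it with any library left out (adjusted p = 0.0601 to 0.108). Hnmt, which methylates histamine (log2FC 0.69, edgeR adjusted p = 0.0531), and Hdc, which makes histamine from histidine (log2FC -0.48, edgeR adjusted p = 0.127), did not pass. Amdhd1 and Ftcd, which act after Uroc1 and were named after their values were seen, had log2FC of 0.15 and 0.08 (edgeR adjusted p = 0.268 and 0.539).

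**Figure D4:**
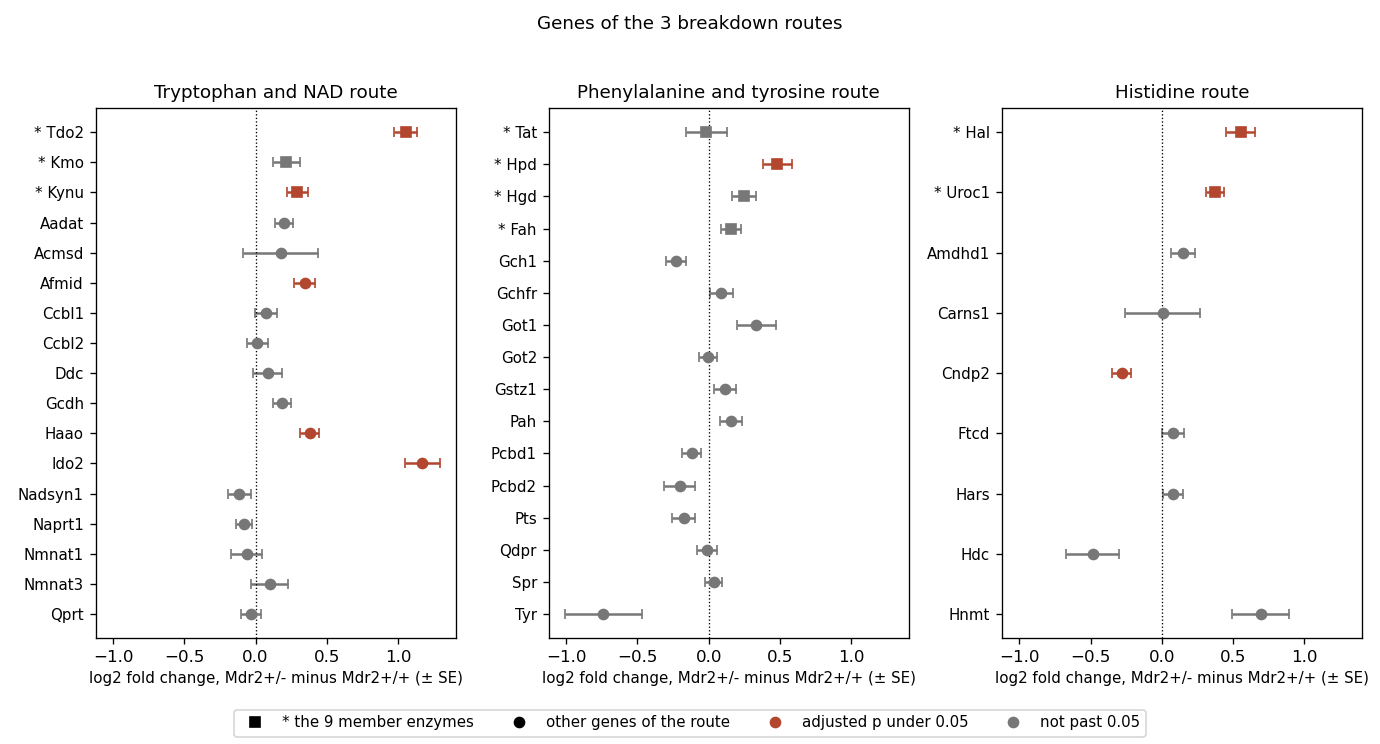
Log2 fold change ± SE (horizontal axes, Mdr2+/- minus Mdr2+/+) of the 9 enzymes (squares) and of other tested genes of the 3 routes (circles), red where the adjusted p was under 0.05. Tdo2 (1.05) and Ido2 (1.17) stand apart at the right of the tryptophan panel, and in the tyrosine panel only the Hpd square is red.

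Carriers of aromatic amino acids and histidine went both ways, with 3 of 12 higher and 3 lower (median log2FC -0.0089). Slc38a3, a system N carrier of glutamine and histidine, had 804, 807 and 793 CPM in Mdr2+/- livers, against 561 and 632 CPM in Mdr2+/+ livers (log2FC 0.43, SE 0.07, edgeR adjusted p = 0.00525). The large neutral amino acid carrier Slc43a2 rose (25.4 ± 1.25 CPM in Mdr2+/- and 17.3 ± 0.961 CPM in Mdr2+/+ livers, log2FC 0.55, edgeR adjusted p = 0.00517), as did the lysosomal histidine carrier Slc15a4 (log2FC 0.52, edgeR adjusted p = 0.0132). Slc43a1, a relative of Slc43a2, fell (log2FC -0.44, edgeR adjusted p = 0.0161). Outside the naming rule, and chosen after their values were seen, the aromatic amino acid carrier Slc16a10 (log2FC -0.39, edgeR adjusted p = 0.0178) and Slc7a5 (log2FC -0.53, edgeR adjusted p = 0.0265) also fell. Without Mdr2+/+ replicate 1 none of the 3 falls passed (adjusted p = 0.057 to 0.171), and Slc43a2 did not either (0.0503). Without Mdr2+/+ replicate 2 Slc15a4 did not pass (0.0723), and without that library or Mdr2+/- replicate 2 or 3 a single carrier was lower.

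Enzymes that break down other amino acids were higher in 11 of 25 cases and lower in 1 (median log2FC 0.30), against 6.63% higher and 5.41% lower over all tested genes. Gls2, the liver glutaminase, rose to 196 ± 17.8 CPM in Mdr2+/- livers, against 108 ± 3.46 CPM in Mdr2+/+ livers (log2FC 0.85, edgeR adjusted p = 6.27e-04). Gpt, alanine aminotransferase, rose to 44.8 ± 8.57 CPM in Mdr2+/- livers, against 16.6 ± 1.62 CPM in Mdr2+/+ livers (log2FC 1.45, edgeR adjusted p = 9.4e-04). Ivd, of leucine breakdown (log2FC 0.54), and Aass, of lysine breakdown (log2FC 0.55), rose too (edgeR adjusted p = 0.00298 and 0.00499). The member that fell was Gpt2, a mitochondrial alanine aminotransferase named after its values were seen (log2FC -0.35, edgeR adjusted p = 0.0431). The number of rises was 5 without Mdr2+/+ replicate 1, 6 without Mdr2+/- replicate 2 and 7 without Mdr2+/- replicate 3. Gpt2 lost its call without any of the Mdr2+/- libraries or Mdr2+/+ replicate 2 (adjusted p = 0.0552 to 0.234).

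Because Tat and Tdo2 are known glucocorticoid targets, genes responsive to that hormone were listed, and 2 of 16 rose and 1 fell (median log2FC 0.10). Over all tested genes 6.63% were higher and 5.41% lower, and in lists this short 1 or 2 calls in a direction are near those shares. The same holds for the liver transcription factors below. The receptor gene Nr3c1 had 97.3, 92.5 and 93.7 CPM in Mdr2+/- livers, against 73.6 and 74.3 CPM in Mdr2+/+ livers (log2FC 0.35, SE 0.06, edgeR adjusted p = 0.00684). Fkbp5, a co-chaperone of that receptor, also rose (log2FC 0.44, edgeR adjusted p = 0.00544), whereas Igfbp1, an insulin-like growth factor binding protein, fell (log2FC -0.54, edgeR adjusted p = 0.00487). Without Mdr2+/+ replicate 2 the number of rises was 5 and the median log2FC 0.40, and without Mdr2+/+ replicate 1 the median was -0.19. Among 20 liver transcription factors 2 rose and 0 fell (median log2FC 0.11), namely Prox1 (71.5 ± 4.84 CPM in Mdr2+/- and 42.2 ± 2.86 CPM in Mdr2+/+ livers, log2FC 0.76, edgeR adjusted p = 8.69e-04) and the fatty acid receptor Ppara (95.8 ± 18.0 CPM in Mdr2+/- and 52.6 ± 2.41 CPM in Mdr2+/+ livers, log2FC 0.86, edgeR adjusted p = 0.00517). Without Mdr2+/+ replicate 1 Ppara had an adjusted p of 0.0503.

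Hal belongs to the periportal zone of the adult lobule, so zonation markers were set beside it. Of 14 other periportal markers 6 rose and 0 fell (median log2FC 0.22), among them Gls2, Aldh1b1 (log2FC 0.73, edgeR adjusted p = 6.54e-04), the urea cycle enzyme Cps1 (log2FC 0.87, edgeR adjusted p = 0.0011) and Cyp2f2 (log2FC 0.96, edgeR adjusted p = 0.00296). Of 14 pericentral markers 1 rose and 3 fell (median log2FC -0.0043). The falls were in the Wnt targets Lgr5 (log2FC -0.82, edgeR adjusted p = 0.00359) and Axin2 (log2FC -0.68, edgeR adjusted p = 0.0115) and in glutamine synthetase Glul (log2FC -0.44, edgeR adjusted p = 0.0158). The rise was in Cyp1a2 (log2FC 0.28, edgeR adjusted p = 0.0497), which kept its call without Mdr2+/- replicate 1 and lost it without any other library (adjusted p = 0.131 to 0.166). Without Mdr2+/+ replicate 1 Lgr5 was the single pericentral fall, and without Mdr2+/+ replicate 2 Glul had an adjusted p of 0.0768. With an Mdr2+/- library left out, periportal rises numbered 5 or 6. With all libraries they numbered 5 in DESeq2 and 4 in limma. The periportal median log2FC was 0.45 without Mdr2+/+ replicate 1 and 0.265 without Mdr2+/+ replicate 2. Of the 6 periportal rises, Gls2 and Sds are also among the rises of the enzymes of other amino acids, so the 2 lists are not independent. Periportal and pericentral markers were not compared with each other by a test.

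Fetal and adult hepatocyte markers were compared because the 9 enzymes mature after birth. Of 9 fetal markers 5 fell and 1 rose (median log2FC -0.33). Their sum was nevertheless higher, at 15940 to 18230 CPM in Mdr2+/- and 15220 to 15330 CPM in Mdr2+/+ livers. Most of that sum was H19, named after its values were seen, at 10590 ± 868 CPM in Mdr2+/- and 8812 ± 113 CPM in Mdr2+/+ livers. H19 did not pass (log2FC 0.265, edgeR adjusted p = 0.0505). Afp, the main serum protein of fetal liver, fell to 636 ± 145 CPM in Mdr2+/- livers, against 1976 ± 211 CPM in Mdr2+/+ livers (log2FC -1.64, edgeR adjusted p = 5.55e-04). Cd24a (log2FC -0.35, edgeR adjusted p = 0.0148) and Gpc3 (log2FC -0.43, edgeR adjusted p = 0.0223) fell as well, while the growth factor gene Igf2 rose (log2FC 0.36, edgeR adjusted p = 0.0141). Of 14 adult markers 3 rose and 1 fell (median log2FC -0.04): Cps1, the carboxylesterase Ces3a (log2FC 1.48, edgeR adjusted p = 0.00245) and Ass1 (log2FC 0.50, edgeR adjusted p = 0.0392) rose, and the apolipoprotein Apoa1 fell (log2FC -0.21, edgeR adjusted p = 0.0458). Without Mdr2+/+ replicate 1 a single fetal marker, Afp, was lower and 0 were higher, without Mdr2+/- replicate 3 the falls numbered 2, and without any of the other libraries 3. The rise of Igf2 was lost without Mdr2+/- replicate 2 (adjusted p = 0.0601) or Mdr2+/+ replicate 1 (0.0514). Apoa1 kept its call only without Mdr2+/+ replicate 2, and Ass1 only without Mdr2+/- replicate 1, among these 5 omissions. Cps1 and Ass1 are on the adult and the periportal lists.

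The genes most like the 5 enzymes that passed were sought by the root mean square distance between log2 CPM profiles, each centred on its own mean, over the 5 libraries and 8818 other genes. Nearest to Tdo2 were the complement gene C9 (distance 0.059, log2FC 1.07), Kif13b (0.071) and Cyp4f14 (0.093). Nearest to Hpd were the prolactin receptor gene Prlr (0.041), Vhl (0.047) and Acnat2 (0.047), and nearest to Hal were Narf (0.035), Jmy (0.041) and Arrdc3 (0.043). Uroc1 lay closest to Nr3c1 and Pcdh1 (both 0.018) and Abca3 (0.022). Kynu lay closest to Nup153 (0.018), Bdp1 (0.02) and Ubr7 (0.022), none of which passed the genotype test (edgeR adjusted p = 0.0644 to 0.0927). With 5 libraries in 2 groups such distances mostly follow the genotype difference and the noise of each gene.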

How the data were processed

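Each deposited file lists estimated counts for the Ensembl genes of 1 liver library, unscaled for depth or length. The submitters' processing notes name TopHat and mm10; how reads were counted, and whether by strand, is not given in the sources used here. Of values above 0, 33.9 to 37.3% were whole (tolerance 1e-06), so counts were rounded, which changed a library total by 201 to 309. Genes were kept by filterByExpr (minimum count 10), libraries scaled by TMM, and the 3 Mdr2+/- libraries tested against the 2 Mdr2+/+ libraries in edgeR 4.0.16 under R 4.3.3 (common biological coefficient of variation 0.0762, 13959 genes). The SE was obtained from the log2 fold change and the F statistic, and 95% intervals used a t distribution with 9.52 degrees of freedom, the residual plus the prior ones. No libraries agreed within sampling noise (chi-square per degree of freedom 5.3 to 8.86 between libraries of a genotype).

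GENCODE M21 (mm10) gave coordinates and transcripts for 87.3% of identifiers. Levels per kilobase use the APPRIS principal transcript and the length offset the longest one. Promoters came from RefSeq (GRCm38.p6). Members and lists were chosen with earlier results of these data known. The naming rule took all 9 enzymes, up to 4 genes per list by p-value among those that passed, the 2 lowest p-values among the others where fewer than 2 passed, and the 3 nearest profiles (mean log2 CPM over 3) of each enzyme that passed; lists of other cell types are given by counts and sums. Alternatives were 2 filters, 2 scalings, DESeq2 1.42.0, limma 3.58.1 (voom, robust), each library left out, the replicate number as a block, and offsets for length and GC content. The test was also tried on simulated counts.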

Additional observations from a re-analysis of the deposited data

How the results depend on the processing

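Across the 9 enzymes and 14 alternatives, 111 of 126 log2 fold changes kept their direction and their side of the threshold, 9 lost a call, 3 gained one and 3 changed sign. The sign changes were all in Tat, at 0.0161 with the transcript length offset and within -0.23 to 0.23 over the libraries left out. Tdo2 and Uroc1 passed in 14 of 14 alternatives, Hal in 13, Hpd in 12, Kynu in 8, Hgd in 3, and Kmo, Tat and Fah in 0. With a library left out, 697 to 1174 genes differed over the transcriptome, against 1680 with all 5, 2 to 6 of the 9 enzymes passed, against 5, and 9 to 20 genes of the pathway lists passed, against 22. The lowest of these counts came without Mdr2+/+ replicate 1. Leaving out either Mdr2+/+ library left a lone one, assumed to vary like the others. The cause of these losses beyond the smaller number of libraries was not tested. The replicate numbers shared by the genotypes were not taken as pairs, since the labels tie them to no litter or day and same-numbered deviations correlated at 0.0304 and 0.0286 across genes. With the replicate number as a block 1277 genes, 4 of the 9 enzymes and 20 pathway genes passed, and Kynu did not (adjusted p = 0.0654). The median log2 fold change was -0.13 among the shortest 2718 genes by transcript length, which hold Fah, Hgd and Hpd, and 0.11 among the longest 2714, which hold Hal. With the length offset 6 of the 9 enzymes were higher.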
